A study of Mus musculus with 2 samples.

Results

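Genes of 5 families that steer vesicles between compartments were read in mouse NIH 3T3 fibroblasts with and without a truncated form of ATCE1, a transcription factor whose gene is now called Creb3l4. The members were the genes whose symbol begins with Rab, Stx (syntaxin), Snx (sorting nexin), Vamp (vesicle-associated membrane protein) or Vps (vacuolar protein sorting) directly followed by a digit, read by probe sets with exactly 1 symbol. They came to 124 genes on 230 probe sets, out of 12394 genes on 20393 probe sets with 1 symbol. Of these, 56 were Rab, 12 Stx, 21 Snx, 7 Vamp and 28 Vps genes. The rule reads symbols, not functions: 6 Rab-named members are not GTPases (Rab11fip5, Rab26os, Rab3gap2, Rab3il1, Rab3ip and Rab5if), and Vps72 is a subunit of chromatin remodelling complexes.

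The study compared 1 culture of NIH 3T3 cells, an embryonic fibroblast line, carrying the plasmid pHA-CMV-ATCE1-C-del with 1 culture carrying the empty vector pHA-CMV. Both were transfected with Lipofectamine and their total RNA was taken at 48 hours. The insert encodes ATCE1 without its C-terminus, which the series describes as a nuclear form, under the CMV promoter by the plasmid's name. No source used here states what share of the cells took up either plasmid. Each culture was read on 1 Affymetrix array, so no value below has a replicate error and no test could be made.

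Values are MAS5 signals scaled to a common trimmed mean, and each difference is a log2 ratio, positive where the ATCE1-C-del culture was higher. Signals under 77.3, the higher of the median signals of both arrays, were raised to that floor, and a gene was measured if its brightest probe set reached the floor on at least 1 array. All 8 fibroblast markers examined were measured. None of 7 epithelial, 5 endothelial, 6 neuronal and 5 muscle markers was, and of 6 macrophage markers Cd14 and Cd68 were, Cd14 at 116 in ATCE1-C-del cells and 104 in vector cells and Cd68 at 81.4 and 50.9. The single probe set of Creb3l4 read 18.0 and 20.7, under the floor on both arrays, and so does not check which culture carried the insert. In bulk RNA, fewer cells carrying a transcript and less of it per cell cannot be told apart.

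Rab proteins are small GTPases that mark the identity of a membrane and recruit the motors, tethers and coats that move it. Syntaxins and VAMPs are SNARE proteins, whose helices zip together across 2 membranes and fuse them. Sorting nexins bind phosphoinositides on endosomes through a PX domain and shape the tubules in which cargo leaves. Vps proteins, named after yeast mutants that missort vacuolar enzymes, form the retromer (return of cargo to the Golgi), HOPS and CORVET (tethering at lysosomes and endosomes), GARP (tethering at the Golgi) and the ESCRT machinery (budding into multivesicular bodies). In fibroblasts these systems recycle receptors and integrins and deliver matrix proteins.

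Of the 124 members, 99 were measured, 98 of them on both arrays, and of all 12394 genes with 1 symbol 6789 were measured. No member was 1.5-fold higher or lower, while of all 6789 measured genes 0.869% reached 1.5-fold upward and 1.12% downward. At 1.2-fold, 5 of the 99 members were higher (5.05%, against 9.13% of all measured genes) and 7 were lower (7.07%, against 12.7%). Ratios under 0 were found for 60 members (60.6%, against 52.1% of all measured genes) and over 0 for 39. The median log2 ratio was -0.07 over the members and -0.01 over all measured genes. Scaled to the 18 hybridisation control probe sets instead, the measured genes together had a median of 0.23 and the members split into 90 higher and 9 lower, so every direction below is relative to the total signal of the arrays. A single array per culture cannot show that these genes were unaffected.

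**Figure D1:**
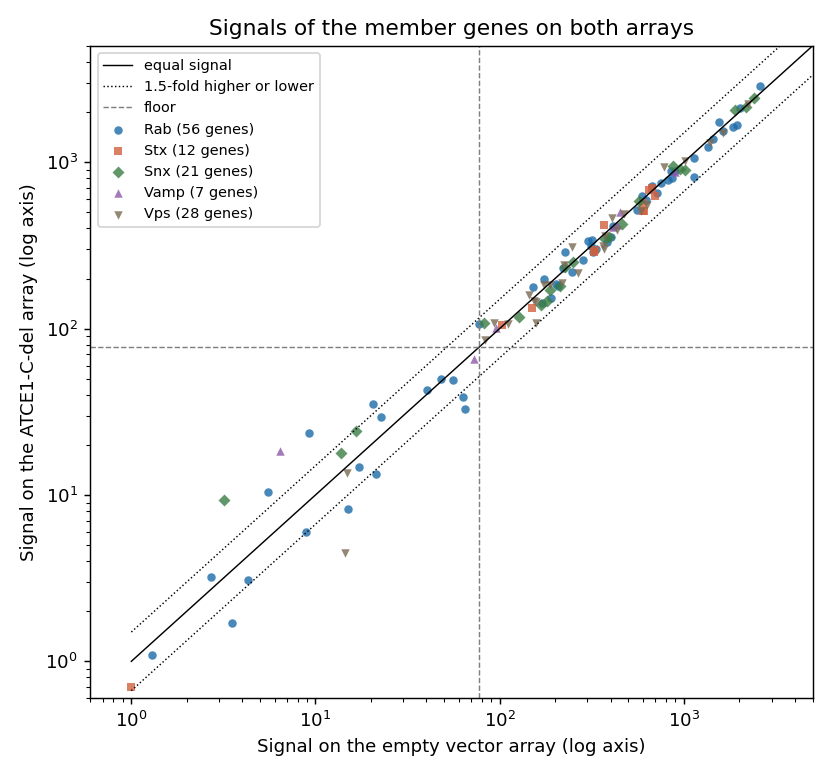
Scaled MAS5 signal of 1 probe set (the brightest, or any one where all lie under the floor) of each of the 124 member genes, empty vector on the horizontal and ATCE1-C-del on the vertical log axis, 1 point per gene with 1 array per culture. The 99 measured genes reach the dashed floor of 77.3 on at least 1 axis and lie between the dotted 1.5-fold lines, while some of the 25 genes under the floor on both arrays fall beyond them in either direction.

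The 25 members not measured were 17 Rab, 1 Stx, 3 Snx, 2 Vamp and 2 Vps genes, and none of their probe sets passed a signal of 72.6 on either array. Several are known from cells unlike fibroblasts. Rab3a, which sits on synaptic vesicles, read 32.9 in ATCE1-C-del cells and 64.8 in vector cells. Rab25, an epithelial relative of Rab11, read 3.10 and 4.31. Rab27a and Rab27b, which serve secretory granules and melanosomes, reached 19.2 and 15.8 and 37.6 and 45.8 on their brightest probe sets. Rab37, a mast cell granule GTPase, read 1.70 and 3.50, and Vamp1, a synaptic SNARE, 18.5 and 6.41. Others of the 25 are listed here in roles not tied to such cells, such as Vps25 of ESCRT and Rab30 of the Golgi. Vps25 read 13.6 in ATCE1-C-del cells and 14.8 in vector cells, and Rab30 39.0 and 63.1. Conversely, Rab3c, Rab3d, Stx1a and Vamp2, of secretory or neuronal roles, were measured, with values given below. Of the 7 Rab GTPases of regulated secretion on the arrays, 5 were under the floor, against 3 of 12 that serve the Golgi and 2 of 11 of the early endosome. Over all genes with 1 symbol, 6789 of 12394 were measured and the rest were under the floor. The role lists are short and were chosen with earlier results known, so this contrast was not tested. Signals this low carry no order, and no fold is given for them.

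Among the prefix groups, the 11 measured syntaxins had a median log2 ratio of -0.15, with 7 lower and 4 higher. It was the lowest of the 5 medians here and under 10 of 13 processing alternatives, but the highest, at 0.02, with the mean over all measured probe sets of a gene, so the groups have no settled order. The 39 Rab genes had a median of -0.08 (24 lower, 15 higher), the 18 sorting nexins -0.09 (11 lower, 7 higher) and the 26 Vps genes -0.06 (15 lower, 11 higher). The 5 Vamp genes had a median of -0.02 (3 lower, 2 higher). The groups overlapped throughout: each had members on both sides of 0, and the highest syntaxin, Stx2 at 0.20, stood above the highest Vamp gene, Vamp8 at 0.16. Members past 1.2-fold were found among Rab, Snx and Vps genes, at 2 higher and 2 lower, 1 higher and 2 lower, and 2 higher and 3 lower. Among the 11 syntaxins and 5 Vamp genes there were none. Over all measured members the shares were 5.05% higher and 7.07% lower, and over all measured genes 9.13% and 12.7%. At such shares, groups of 11 and 5 genes are too small for having none to set them apart. These counts rest on brightest probe sets, and the second of Vamp2 was at least 1.55-fold lower. With genes that are not replicates and 1 array per culture, these differences between groups could not be tested.

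**Figure D2:**
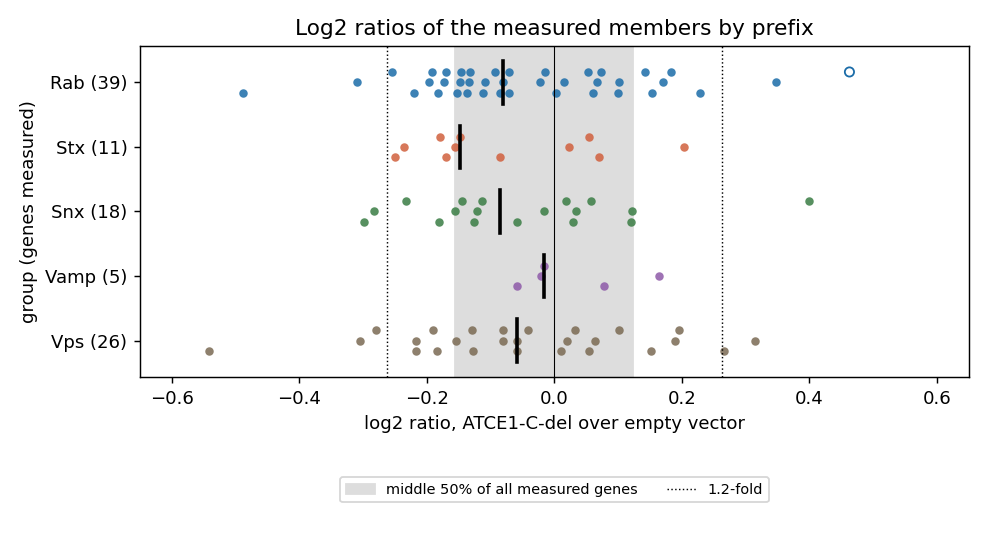
Log2 ratio (positive where ATCE1-C-del was higher) under trimmed-mean scaling for each measured member, 1 row per prefix, 1 point per gene, with the group median as a vertical bar. The open circle is Rab5b, a lower bound, the grey band is the middle 50% of all measured genes (-0.16 to 0.12) and dotted lines mark 1.2-fold. All group medians lie between -0.15 and -0.02 and inside the band, and the points of the groups overlap.

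The Rab GTPases of the Golgi and of the route from the endoplasmic reticulum had 7 of 9 measured genes lower, with a median of -0.09. Rab43, a Golgi GTPase, read 153 in ATCE1-C-del cells and 190 in vector cells (1.24-fold lower), the largest difference of this group. The other Rab43 probe set lay just under the floor on both arrays, at 76.9 and 74.1. Rab18, which acts at the endoplasmic reticulum and lipid droplets, read 1667 and 1943 (1.17-fold lower), while its second probe set stood at a log2 ratio of 0.03. Rab1a, required for transport from the endoplasmic reticulum to the Golgi, went the other way at 2854 and 2587 (1.10-fold higher), but its second probe set read 533 and 587, a log2 ratio of -0.14. Its paralog Rab1b was level at 315.2 and 314.6. All 3 probe sets of Rab2b above the floor on both arrays were lower, from -0.19 to -0.10, and the 4 such probe sets of Rab2a ran from -0.07 to 0.28. A fainter Rab2b probe set, above the floor in ATCE1-C-del cells alone, was at least 1.06-fold higher. Another, above it in vector cells alone, was at least 1.01-fold lower.

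Early endosomal Rab genes had 6 of 9 lower, with a median of -0.09. Rab5a, which controls fusion of early endosomes, read 804 in ATCE1-C-del cells and 858 in vector cells, and Rab5c read 515 and 557, log2 ratios of -0.09 and -0.11. The third Rab5 gene, Rab5b, read 107 and 77.1, the latter just under the floor, which makes it at least 1.38-fold higher on its single probe set. Rab5b was the only member measured on 1 array alone. Rab4a and Rab4b, which recycle receptors quickly to the surface, lay on opposite sides of 0, at -0.17 and 0.07, and the second probe set of Rab4a stood at 0.08. Rab22a gave 415 and 410 on its brightest probe set, a log2 ratio of 0.01, and -0.46 on the second.

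For recycling and delivery to the surface, 5 of 9 Rab genes were lower, with a median of -0.08. Rab10, which carries vesicles to the plasma membrane, had the lowest ratio of all Rab genes, at 813 in ATCE1-C-del cells and 1141 in vector cells (1.40-fold lower). Its 3 probe sets disagreed: the faintest read 328 and 495 (1.51-fold lower), but the middle one read 480 and 459, a log2 ratio of 0.07. Rab11a, the GTPase of recycling endosomes, read 1232 and 1355 (-0.14), with its second probe set at -0.20, and its paralog Rab11b stood at -0.08. The 4 probe sets of Rab14 above the floor on both arrays were all lower, from -0.27 to -0.11. Rab8a and Rab8b lay on opposite sides, at 0.05 and -0.15.

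At late endosomes and lysosomes, 4 of 6 Rab genes were lower, with a median of -0.10. Rab7, the main GTPase of late endosomes, read 2116 in ATCE1-C-del cells and 2030 in vector cells, and 1119 and 1170 on its second probe set, log2 ratios of 0.06 and -0.06. Rab9, which returns mannose 6-phosphate receptors to the Golgi, read 1627 and 1846 (-0.18). Of the secretory Rab genes, Rab3c read 289 and 227 (1.27-fold higher), with a second probe set at 0.11, and Rab3d read 143 and 170.3 (1.19-fold lower), with its 3 other probe sets under the floor. The 3 measured Rab-named genes that encode no GTPase were all higher: the Rab11 effector gene Rab11fip5 at 177 and 151 (0.23), Rab3ip, an exchange factor for Rab8, at 198 and 174 (0.18) and Rab5if at 1757 and 1561 (0.17). Of the 36 measured Rab genes that do encode GTPases, 12 were higher and 24 lower. The grouping of Rab-named genes that are not GTPases was made after the files were seen. Each of its 3 measured genes rests on 1 probe set, and the SD of 1 probe set was 0.20 over all genes, so no contrast is drawn.

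**Figure D3:**
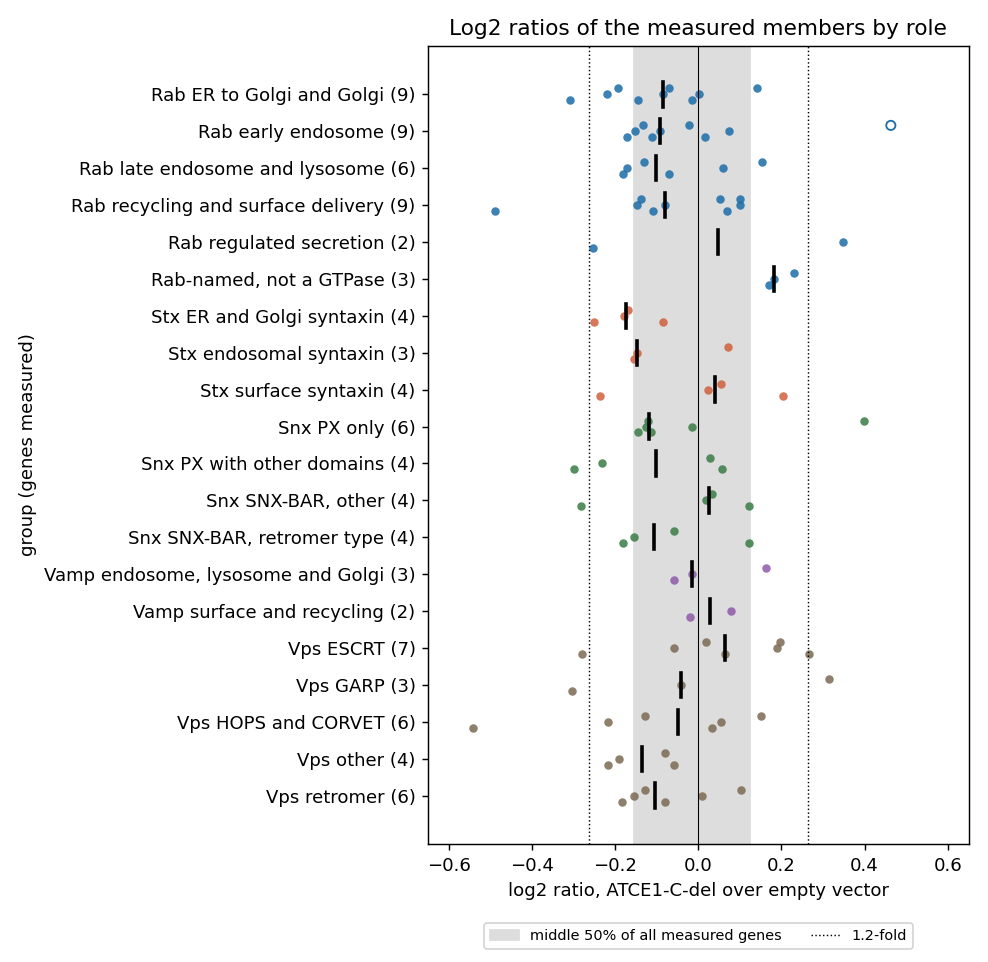
Log2 ratio (positive where ATCE1-C-del was higher) by role, under trimmed-mean scaling, within each prefix, for roles with at least 2 measured genes, 1 point per gene and a bar at the median. The grey band, dotted lines and open circle are as in the plot by prefix, and the retromer line also holds Vps26c and Vps35l of the related retriever complex. The HOPS and CORVET line also holds Vps33b, a relative of their subunit Vps33a. The 4 syntaxins of the endoplasmic reticulum and Golgi all lie under 0 and the 3 Rab-named genes that are not GTPases all lie over it, while most other rows span 0. The row of Rab-named genes that are not GTPases was set apart after the files were seen.

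The 4 measured syntaxins of the endoplasmic reticulum and Golgi were all lower, with a median of -0.17. Stx6, of the trans-Golgi network, read 510.1 in ATCE1-C-del cells and 607 in vector cells (1.19-fold lower) on its brightest probe set, whose suffix marks probes that can match other transcripts. Its 3 other probe sets were higher, up to a log2 ratio of 0.16. Stx18, which serves retrieval to the endoplasmic reticulum, read 290 and 326 (1.13-fold lower), and all 5 of its probe sets were lower, from -0.22 to -0.04, 3 of them with that suffix. Stx17, the autophagosome syntaxin, read 133 and 151 (-0.18), with a second probe set at 0.10, and Stx5a, the core syntaxin of the early Golgi, read 569 and 604 (-0.09), with its second at -0.04. Another Stx17 probe set, above the floor in ATCE1-C-del cells alone, was at least 1.19-fold higher. The direction held over all probe sets above the floor for Stx18 and Stx5a and not for Stx6 and Stx17.

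Surface syntaxins were mixed, with 3 of 4 higher and a median of 0.04. Stx2 read 422 in ATCE1-C-del cells and 367 in vector cells (1.15-fold higher). Stx4a, the widely expressed syntaxin of the plasma membrane, was near level at 695 and 669 (0.05), and Stx1a, its neuronal relative, at 105 and 103 (0.02). This Stx1a probe set has the suffix for probes that can match other transcripts. The other Stx1a probe set was under the floor on both arrays, at 37 and 34. Stx3, the apical syntaxin of epithelia, read 507 and 597 (1.18-fold lower). Among endosomal syntaxins, Stx7 (-0.15) and Stx8 (-0.16) were both lower, whereas Stx12 read 684 and 651 (0.07). Stx7 and Stx8 are known to sit in 1 SNARE complex of late endosomes.

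Most Vamp genes were near level on their brightest probe sets. Vamp3, the SNARE of recycling endosomes in most cells, read 879 in ATCE1-C-del cells and 892 in vector cells (-0.02), with 3 further probe sets from -0.01 to 0.23. Vamp4, of the trans-Golgi network, read 409 and 414 (-0.02), and Vamp7, of late endosomes and lysosomes, 417 and 434 (-0.06). The second probe sets of these 2 genes, at -0.01 and -0.09, lay on the same side. Vamp8, which partners Stx17 in autophagosome fusion, was the highest at 502 and 448 (1.12-fold). Vamp2, the synaptic synaptobrevin, read 101 and 96.0 on one probe set and 74.6 and 120.0 on the other, which is 1.06-fold higher and at least 1.55-fold lower.

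Among the Vps genes, HOPS and CORVET held the member with the largest difference. Vps39, a HOPS subunit, read 108 in ATCE1-C-del cells and 158 in vector cells (1.46-fold lower), and its other probe set was under the floor at 51.7 and 62.1. Vps16 of the shared core read 188 and 218 (1.16-fold lower). Vps18 of the same core stood at -0.13, with its second probe set at -0.45. Vps11, also of the core, read 160.1 and 144 (0.15), with its second probe set at 0.27. Vps41 of HOPS stood at 0.05, with probe sets from -0.11 to 0.05. Vps33b, a relative of the subunit Vps33a that was listed here with HOPS and CORVET, stood at 0.03. Of these 6 listed genes 3 were higher and 3 lower, and with or without Vps33b they did not share a direction.

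The retromer list, which also holds the retriever genes, had a median log2 ratio of -0.10. Of its 6 ratios, 4 lay under 0. Vps35, the retromer scaffold, read 2241 in ATCE1-C-del cells and 2226 in vector cells (0.01), with the second probe set at 0.16. Vps26a, the arrestin-like subunit, read 1493 and 1632 (-0.13), and Vps29 read 1313 and 1389 (-0.08), with its second probe set at -0.002. Vps26b, the paralog of Vps26a, went 0.10 on one probe set and -0.32 on the other. The retriever genes Vps26c and Vps35l lay at -0.18 and -0.15. The sorting nexins known to work with retromer gave a similar picture: Snx1 read 355 and 395 (-0.16), Snx2 read 894 and 1014 (-0.18) and Snx6 had all 3 probe sets lower, from -0.36 to -0.06, but Snx5 read 2051 and 1886 (0.12), with 4 probe sets from -0.09 to 0.32. Snx3, which delivers Wntless to retromer, was level at 2154 and 2178 (-0.02).

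The ESCRT genes were the Vps group with the most members higher, 5 of 7, at a median of 0.06. Vps4b, the ATPase that disassembles ESCRT-III, read 937 in ATCE1-C-del cells and 779 in vector cells (0.27), whereas its paralog Vps4a read 359 and 374 (-0.06). Vps36, of ESCRT-II, read 462 and 405 (1.14-fold higher). The 3 Vps37 paralogs of ESCRT-I diverged: Vps37a read 107 and 93.7 (0.20), Vps37b 182 and 174 (0.06) and Vps37c 302 and 367 (-0.28). Vps37c was the only member whose probe sets above the floor on both arrays, here 2, all lay past 1.2-fold on 1 side, the second reading 204 and 254 (-0.32). This held for 1 of 41 members with at least 2 such probe sets (2.44%) and for 113 of 2441 genes overall (4.63%). Both Vps37c probe sets carry the suffix for probes shared between transcripts.

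GARP subunits went apart, with Vps52 at 308 in ATCE1-C-del cells and 248 in vector cells (1.24-fold higher) and Vps53 at 217 and 268 (1.24-fold lower). The second probe set of Vps53 gave the opposite, 103 and 83.5, a log2 ratio of 0.30. The 4 other Vps genes measured were all lower: the chromatin subunit gene Vps72 (-0.22), Vps50 of a complex related to GARP (-0.19), Vps45 (-0.08) and Vps9d1 (-0.06).

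The remaining sorting nexins ranged from Snx14 to Snx11. Snx14 read 147 in ATCE1-C-del cells and 180.2 in vector cells (1.23-fold lower), Snx18, an SH3 protein of membrane tubulation, 138 and 168 (1.22-fold lower), and Snx19 180.1 and 211 (1.17-fold lower). A second Snx19 probe set went the other way, at 81.8 and 67.6, at least 1.06-fold higher. Snx11, with little besides a PX domain, read 108 and 82.0 (1.32-fold higher), the latter signal near the floor. Snx9, which binds dynamin in clathrin-mediated uptake, read 954 and 877 (0.12) and was level on its second probe set, and Snx15 read 236 and 226 (0.06). Of the 6 measured PX-only nexins, Snx11 was higher and the 5 others stood at -0.14 to -0.02, the last being Snx3, level as given above.

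Different probe sets of the same member gave the only estimate of spread on these arrays, and they often disagreed. For 41 members with at least 2 probe sets above the floor on both arrays, the brightest pair lay on the same side of 0 in 22 (53.7%), against 59.9% of 2441 genes in all. By prefix, this was so in 8 of 20 Rab, 3 of 5 Stx, 3 of 4 Snx, 3 of 3 Vamp and 5 of 9 Vps genes. The SD of the log2 ratio of 1 probe set, taken from these pairs, was 0.18 for the members and 0.20 for all genes. The widest gaps were those of Vps53 (-0.30 and 0.30), Rab10 (-0.49 and 0.07), Rab40c (-0.20 and 0.31) and Rab22a (0.01 and -0.46). Of 10 members with at least 3 such probe sets, 4 kept 1 side on all of these, Rab14, Rab2b, Snx6 and Stx18, and all 4 were lower. The share of all genes that did so is not given here, and a fainter Rab2b probe set went the other way. These spreads cover probe design and hybridisation and leave out the variation between cultures.

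**Figure D4:**
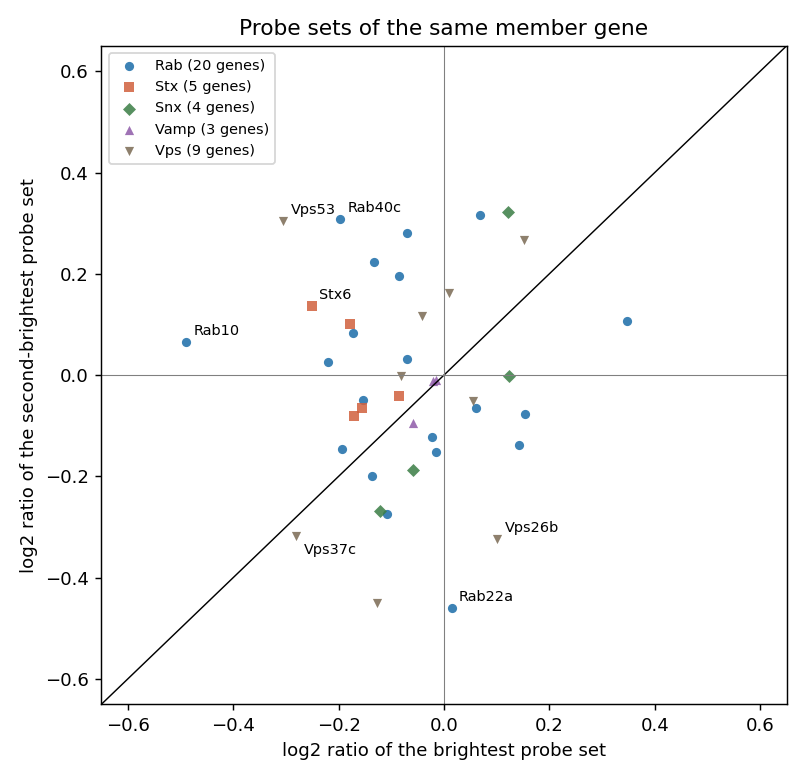
Log2 ratio of the second-brightest against that of the brightest probe set for the 41 members with at least 2 probe sets above the floor on both arrays, 1 point per gene, coloured by prefix, with the line of equal ratios. Points in the upper left and lower right quadrants disagree in sign, among them Vps53, Rab10, Rab40c, Stx6, Vps26b and Rab22a, and Vps37c lies near the line at -0.28 and -0.32.

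Promoters were searched for 3 letter strings, because the factor studied belongs to the CREB family and because lysosomal genes are known to share the CLEAR element, bound by TFEB. The strings were TGACGTCA, the full cAMP response element, TGACGTGG, bound by bZIP factors of the unfolded protein response, and TCACGTGA, the core of the CLEAR element. RefSeq promoters (GRCm38.p6, 300 bases from 250 before to 50 after a start site, both strands searched) matched 97 of the 124 members. The full cAMP response element occurred in 2 of these 97 genes (2.06%), Rab5a and Rab25, and in 2.03% of 27025 genes in the table, or 1.79% of all 32851 promoters. TGACGTGG occurred in 1 (1.03%), Stx5a, against 0.714% of genes and 0.676% of promoters. TCACGTGA occurred in 6 (6.19%), against 1.12% of genes and 0.974% of promoters. Among measured genes alone it occurred in 6 of 78 members and in 151 of 5613 genes (7.69% and 2.69%).

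The stretches around the TCACGTGA matches of the 6 genes are given with 30 bases on each side, the match in capitals, because this string had the widest gap in share between the members and the table, a gap that was not tested. The Vps26a gene has 2 start sites in the table, each with a match of its own. In Rab5a the capitals further downstream are the cAMP response element, 28 bases before the start site. Matches did not overlap each other.
Stx6, chr1:155158587-155158654, plus strand: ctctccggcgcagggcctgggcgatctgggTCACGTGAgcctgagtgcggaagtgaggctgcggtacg
Vps16, chr2:130424271-130424338, plus strand: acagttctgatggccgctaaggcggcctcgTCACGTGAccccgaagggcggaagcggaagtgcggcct
Vps26a, chr10:62486951-62487018, minus strand: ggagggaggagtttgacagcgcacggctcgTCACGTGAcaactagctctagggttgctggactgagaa
Vps26a, chr10:62486713-62486780, minus strand: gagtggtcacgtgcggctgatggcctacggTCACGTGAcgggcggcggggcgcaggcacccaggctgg
Rab21, chr10:115315585-115315652, minus strand: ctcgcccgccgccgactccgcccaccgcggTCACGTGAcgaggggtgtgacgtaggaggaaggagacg
Rab24, chr13:55321942-55322009, minus strand: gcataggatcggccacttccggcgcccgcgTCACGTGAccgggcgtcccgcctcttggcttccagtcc
Rab5a, chr17:53479108-53479243, plus strand: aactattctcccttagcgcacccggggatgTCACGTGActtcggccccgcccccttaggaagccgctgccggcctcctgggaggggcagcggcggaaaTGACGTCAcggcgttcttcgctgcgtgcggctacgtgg

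The match began 86 bases before the start site in Stx6, 19 in Vps16, 183 and 152 in Vps26a, 31 in Rab21 and 96 in Rab5a, and at base 2 after it in Rab24. In 5 of the 6 genes, all but Stx6, a match was preceded by G and followed by C, as in the full CLEAR palindrome, which 5 of 78 measured members and 48 of 5613 measured genes held (6.41% and 0.855%). All 6 genes had log2 ratios under 0: Stx6 -0.25, Vps16 -0.22, Rab24 -0.15, Vps26a -0.13, Rab5a -0.09 and Rab21 -0.02. Their median was -0.14, against -0.08 for the 72 other measured members with a promoter. Over all 151 measured genes with the match, the median was -0.03 and 57.0% were under 0, against a median of -0.01 for genes without it. As given above, 3 of the 4 probe sets of Stx6 above the floor were higher.

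Stx5a, chr19:8741403-8741473, plus strand, is shown for its pair of TGACGTGG matches, 1 on each strand, starting 10 and 40 bases after the start site: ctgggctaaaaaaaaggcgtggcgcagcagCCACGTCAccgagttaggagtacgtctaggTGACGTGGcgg
Its log2 ratio was -0.09. Of the members with the full cAMP response element, Rab5a stood at -0.09 and Rab25 was under the floor. A match describes letters and says nothing of whether a factor was bound there.

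Partner genes outside the rule came from lists chosen with earlier results known. Of Rab regulators and effectors, 33 of 46 were measured, 13 higher and 20 lower, with a median of -0.06. Tbc1d10a, a Rab GTPase-activating protein, read 146.0 in ATCE1-C-del cells and 96.5 in vector cells (1.51-fold higher), Tbc1d24 83.5 and 147 (1.76-fold lower), Chm, the escort protein that hands Rab proteins to their prenylating enzyme, 176 and 249 (1.42-fold lower), and Rabggtb, a subunit of that enzyme, 1400.2 and 1200.8 (1.17-fold higher). Tbc1d10a and Tbc1d24 were the only genes of this list past 1.5-fold, each on a single probe set, beside 0.869% and 1.12% of all measured genes. At 1.2-fold, 1 of the 33 was higher and 6 were lower, beside 9.13% and 12.7%.

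SNARE partners had 24 of 33 measured, 9 higher and 15 lower, with a median of -0.10. None was past 1.5-fold, beside 0.869% of all measured genes upward and 1.12% downward. At 1.2-fold, 0 were higher and 3 lower, beside 9.13% and 12.7%. Snap23, the non-neuronal partner of surface syntaxins, read 306 in ATCE1-C-del cells and 272 in vector cells (0.17), with its second probe set at -0.22. Bet1l stood at 0.14, with 2 fainter probe sets at or under -0.12, Stxbp4 at -0.37 and Snap47 at -0.36, the last with a second probe set at -0.004. The list of ESCRT subunits with other names also holds associated proteins such as Usp8. Of its genes, 21 of 22 were measured, 8 higher and 13 lower, with a median of -0.03. None was past 1.5-fold, and 1 was higher and 1 lower at 1.2-fold, beside the same shares of all measured genes. Tsg101, which joins the Vps37 proteins and Vps28 in ESCRT-I, read 591 and 449 (1.32-fold higher), Usp8 stood at 0.09, Vta1, the activator of Vps4, at -0.31 and Chmp5 at -0.23.

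Tethering and sorting partners had 31 of 33 measured, 9 higher and 22 lower, with a median of -0.07. At 1.5-fold 1 was lower, beside 1.12% of all measured genes. At 1.2-fold 2 were higher and 6 lower, beside 9.13% and 12.7%. Tfrc, the transferrin receptor that Rab5, Rab4 and Rab11 carry through recycling, read 573 in ATCE1-C-del cells and 394 in vector cells (1.45-fold higher), with its second probe set at 0.73 and another, above the floor in ATCE1-C-del cells alone, at a log2 ratio of at least 0.07. Igf2r, the mannose 6-phosphate receptor that retromer returns, read 944 and 1414 (-0.58), just short of 1.5-fold lower, with its second probe set at -0.06. Pik3r4, a subunit of the class III phosphoinositide 3-kinase that makes the lipid bound by PX domains, read 92.8 and 149.5 (1.61-fold lower) on its single probe set, and Trappc5 stood at 0.30, with its second probe set at -0.15.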

How the data were processed

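RNA from 2 cultures was read on 2 Affymetrix arrays, 1 per group, grouped from their labels. Each deposited intensity is a linear MAS5 signal (tool named in the submitters' processing notes, without a version). No source used here states its target value or detection calls. Symbols came from the platform annotation: 20393 probe sets had 1 symbol, 691 several and 1606 none, and 3 of those with several, which include a symbol of these families, were left out.

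Signals were divided by each array's mean after trimming 2% at each end and rescaled alike, then floored on both arrays at the higher array median. Each gene was read by its brightest probe set (mean log2 of floored signals). The 64 control probe sets were left out. Members, gene lists, roles and motifs were chosen with earlier results of these data known, and the grouping of Rab-named genes that are not GTPases was made after the files were seen. Members were named if past 1.5-fold, among the 4 highest or lowest of their prefix above the floor on both arrays, past 1.2-fold on all of at least 2 probe sets, or listed by role. Of each partner list, the 2 highest and 2 lowest were named. Other members were named after their values were seen. Having 1 array per culture limits all precision. The procedure was tested on simulated data with planted changes larger than that of any member, so that test says nothing of ratios as small as theirs. The alternatives tried covered scaling, floor, log scale and probe set choice. Python 3.11.15, numpy 2.4.6, pandas 2.3.3, statsmodels 0.14.6 and matplotlib 3.10.9 were used.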

Additional observations from a re-analysis of the deposited data

How the results depend on the processing

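No paired analysis was possible because each group has 1 array, and for the same reason no replicate could be left out. Scaling to the 18 hybridisation control probe sets moved the median of all measured genes from -0.01 to 0.23. Members followed: their median became 0.18, those of Rab, Stx, Snx, Vamp and Vps 0.17, 0.10, 0.16, 0.23 and 0.18, with 90 higher and 9 lower, 1 past 1.5-fold upward (5.22% of all measured genes), and 36 and 1 past 1.2-fold upward and downward (43.8% and 2.03%). Relative to all genes, the member median lay lower under all 13 alternatives, with differences of -0.083 to -0.020, as did those of Rab, Snx and Vps, while that of Stx was lower under 12 (0.03 higher with the mean over probe sets) and that of Vamp under 10. Most alternatives reuse the same probe sets, and several shift all genes alike, so they are not 13 separate checks. The difference of -0.020 came with the second-brightest probe set. With the floor at the 25th percentile, 3 of 117 measured members were 1.5-fold higher and 3 lower (6.57% and 2.98% of all 9796 genes), and 12 and 13 passed 1.2-fold (18.6% and 15.4%). With the floor at the 75th percentile, 1 and 1 of 63 passed 1.2-fold (5.46% and 8.90%), and on the scale of log2 of signal plus 50, 3 and 2 of 99 (6.91% and 9.13%). Without probe sets ending in _x_at, _s_at or _a_at, 3 of 80 were 1.2-fold higher and 8 lower (9.44% and 13.3%). With the second-brightest probe set of 43 members, 1 (Vamp2) was 1.5-fold lower (1.90%). Of the 21 named members with such a value, 10 then changed sign: Rab10 to 0.065, Vps53 to 0.303, Rab18, Rab1a, Rab7, Stx6, Stx17, Snx9, Snx19 and Vamp2, and the cause was not tested. Over all members with 2 probe sets above the floor on both arrays, 19 of 41 pairs disagreed in sign. The lowest prefix median was that of Stx under 10 alternatives, of Vps with the floor at the 75th percentile, of Snx with the mean over probe sets and of Vamp with the second-brightest probe set. Signals close to the floor limit the genes compared.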
